A study of Mus musculus with 8 samples.

Results

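The cytochrome P450 superfamily was followed through liver and hypothalamus of male mice that differed in strain and in diet. Members were the probes whose platform annotation held exactly 1 gene symbol, of the form Cyp followed by a digit, leaving out Cyp4f14, Cyp39a1, Cyp7a1, Cyp8b1, Cyp27a1 and Cyp7b1. Where a gene had several probes, the brightest by mean log2 intensity over the 8 arrays was kept. This gave 58 genes from 60 probes, out of 33012 probes on the array, of which 14411 carried 1 symbol. A further 7 probes carried several symbols, a P450 gene among them, and gave no member.

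Each of the 8 arrays was read from RNA pooled from 6 male mice, and there was a single pool, on 1 array, for every pairing of a strain with a diet in each tissue, so no pool was repeated. One strain was C57BL/6J (hereafter B6). The other was the homozygous congenic B6.CAST-17 (hereafter congenic), which carries CAST-derived DNA of chromosome 17 on the B6 background and was studied for a nutrient intake QTL. The diets were chow and a 2-choice condition, in which mice chose between a fat/protein and a carbohydrate/protein diet (78% of the named macronutrient and 22% protein in each) for 1 day. From 20 to 25 mice screened per strain over 10 days of self-selection, those with the most divergent intake were kept and then had 6 weeks on chow, so the pools came from selected animals. No age is stated for the mice in the sources used here. The 2-choice tissues were taken 4 h before lights out. No such time is given for the chow tissues, so whether both diets were sampled at the same time of day is not known.

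P450 enzymes are haem monooxygenases that pass electrons from a redox partner to molecular oxygen and insert an oxygen atom into their substrate. Families 1 to 3 are known mainly for drug and foreign-chemical metabolism in hepatocytes, and many of their genes respond to the nuclear receptors Nr1i3 (CAR) and Nr1i2 (PXR) or to the aryl hydrocarbon receptor. Family 4 hydroxylates fatty acids and eicosanoids, and part of it responds to Ppara. The remaining families act on sterols, steroid hormones, retinoic acid and vitamin D.

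Titles and characteristics agreed on every sample, and groups were taken from them, but several free-text descriptions did not match. Those of all 4 liver samples named hypothalamus, those of the 2 liver chow samples named the 2-choice diet, that of the liver B6 2-choice sample named the congenic strain, and that of the hypothalamus congenic chow sample named C57BL/6J. Marker genes bore out the tissue titles. The summed level of 7 hepatocyte markers was 23.10 to 23.67 on the liver arrays and 12.46 to 13.57 on the hypothalamus arrays. That of 7 neuronal markers was 12.60 to 13.35 and 18.63 to 19.25. Here and below, a summed level is the log2 of a list's summed intensities, so its brightest genes dominate it. In the tissue test below, all 7 hepatocyte markers were higher in liver and 6 of the neuronal markers higher in hypothalamus (adjusted p under 0.05). The other, Snap25, read 7.55 to 9.26 in hypothalamus and 8.03 to 8.68 in liver. The 2 strains of a tissue and diet shared 1 intensity distribution in the deposited table, whereas chow and 2-choice arrays did not. Their quartiles differed by up to 2.23 on the log2 scale in hypothalamus and by 0.0927 in liver, so a diet effect cannot be told apart from that scaling. All levels below are log2 intensity after quantile normalization over the 4 arrays of a tissue, and all differences are differences of those levels, with standard errors (SE) from limma. Since no pool was repeated, the error of every test came from how an effect varied between pools, and p-values measure only that spread. Where diets or strains are said not to overlap, 2 arrays are set against 2. This describes the printed values only, and the share of all probes without overlap is not given.

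Most P450 genes were liver genes. Of the 58 members, 45 had a mean level at or above the liver filter level (9.04, the 40th percentile of all probes) and 24 at or above that of hypothalamus (9.26). Of all 33012 probes, 19807 passed the filter of each tissue and 15466 passed both. Both filters were passed by 17 members, the liver filter alone by 28, the hypothalamus filter alone by 7 and neither by 6. The last 6 were Cyp2b19, Cyp2d13, Cyp2j11, Cyp2s1, Cyp4x1 and Cyp21a1, the adrenal steroid 21-hydroxylase. In the test of liver against hypothalamus over 4 matched pairs, with every probe tested, 40 of 58 members were higher in liver, against 14.6% of all probes, and 2 were lower, against 14.9%. By size, 41 (70.7%, against 18.2% of probes) were higher in all 4 pairs with a mean of at least 1.5-fold, and 3 (5.17%, against 19.7%) lower. The median difference was 3.09 over the members and -0.08 over all probes.

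**Figure D1:**
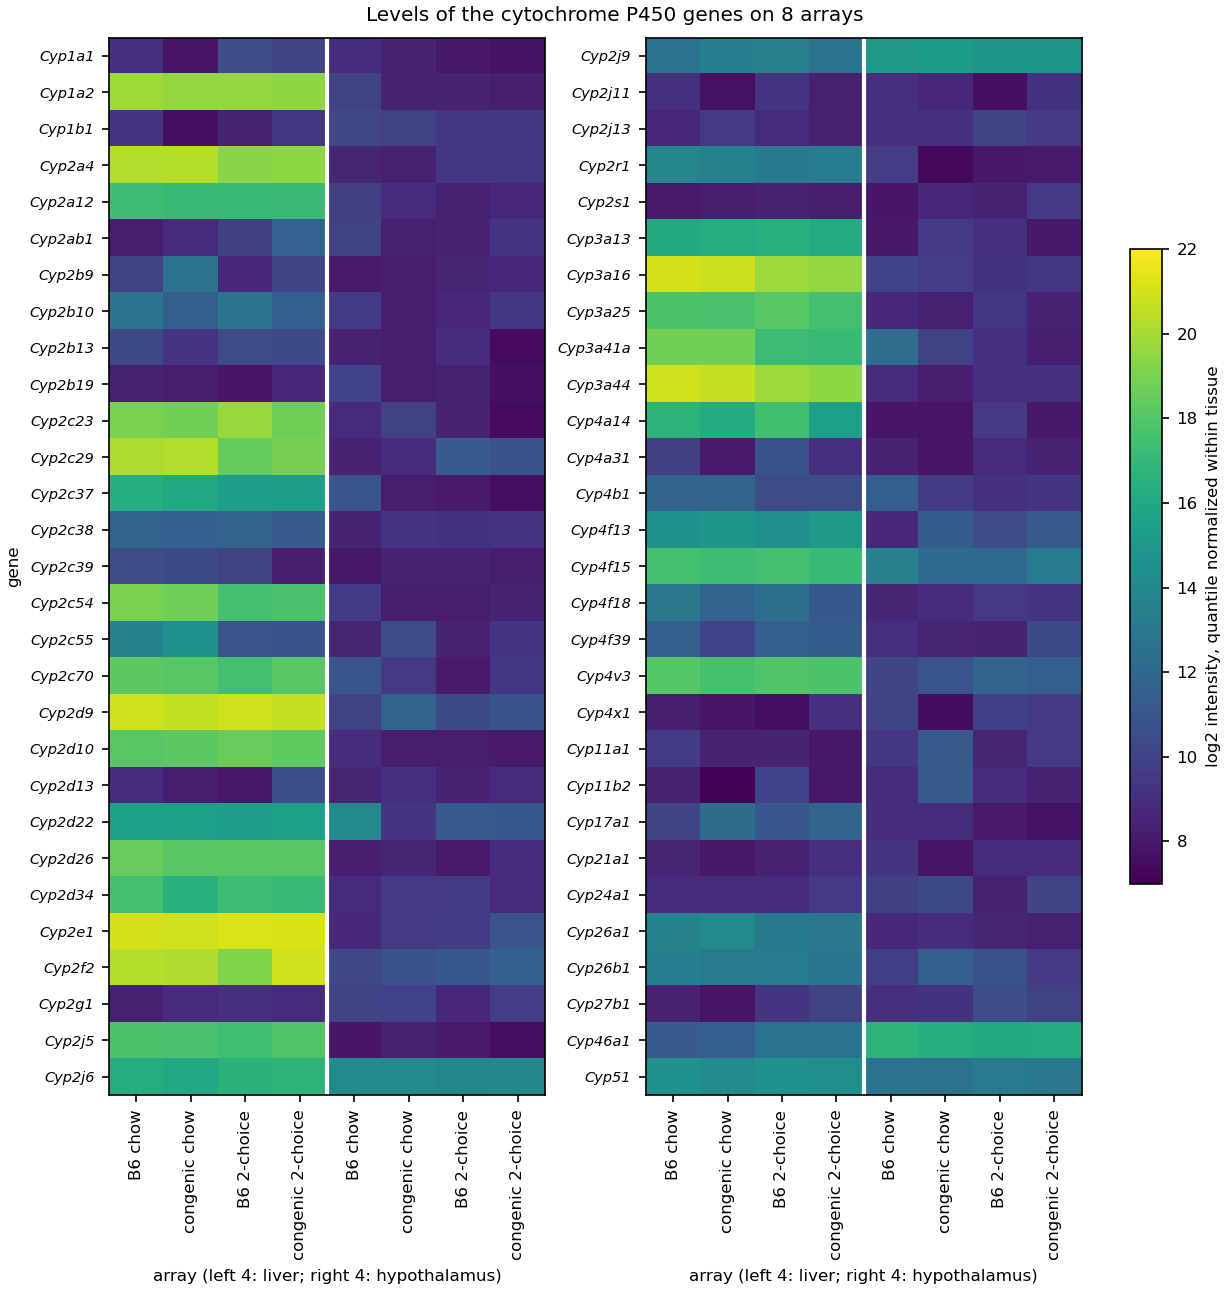
Level of each of the 58 P450 genes (rows, by family and subfamily) on each of the 8 arrays (columns), as log2 intensity after quantile normalization within a tissue; colours run from 7 to 22. The Cyp2c, Cyp2d, Cyp3a and Cyp2a rows are bright on the 4 liver arrays, and Cyp46a1 and Cyp2j9 stand out on the 4 hypothalamus arrays. Colours compare arrays within a row, since different probes have no common scale.

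In the drug-metabolizing subfamilies nearly all members differed. All 8 Cyp2c members, all 5 Cyp3a members, both Cyp2a members and 5 of 6 Cyp2d members were called higher in liver. Cyp2e1, which oxidizes ethanol, acetone and other small molecules, was 21.01 (B6 chow), 20.92 (congenic chow), 21.16 (B6 2-choice) and 21.07 (congenic 2-choice) in liver. On the hypothalamus arrays it read 8.68, 9.55, 9.68 and 10.83 in the same order, a difference of 11.35 ± 0.28 (SE, 4 pairs, adjusted p = 8.43e-11). Liver was far above hypothalamus in every pair, and the hypothalamus values were widely spread. Cyp1a2, the caffeine demethylase of liver, lay between 19.50 and 19.86 in liver and between 8.25 and 9.97 in hypothalamus (difference 10.83 ± 0.25, adjusted p = 6.55e-11). The measured difference was 11.47 ± 0.33 for Cyp3a44 (adjusted p = 2.24e-10), 10.92 ± 0.34 for Cyp2a4, a testosterone 15-alpha-hydroxylase, and 10.69 ± 0.20 for Cyp3a16. Of the 40 members called higher in liver, 25, among them Cyp3a44, Cyp2a4 and Cyp1a2, had a hypothalamus mean under the filter level, so their differences have no order and may understate the gap. Among Cyp2d genes, Cyp2d9, a steroid 16-alpha-hydroxylase of male liver, differed by 10.06 ± 0.29 and Cyp2d10 by 9.93 ± 0.25, while Cyp2d13 (0.17 ± 0.50, adjusted p = 0.855) was not called.

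Within other subfamilies the members parted. Among the Cyp2b genes, Cyp2b10, the classical target of Nr1i3, was 11.52 to 12.80 in liver and 8.29 to 9.61 in hypothalamus (difference 3.18 ± 0.43, adjusted p = 1.12e-04), Cyp2b9 and Cyp2b13 were also called higher in liver, and Cyp2b19 was not (-0.28 ± 0.43, adjusted p = 0.702). The 5 Cyp2j genes, of a subfamily known to act on arachidonic acid, ran in both directions. Cyp2j5 was higher in liver by 9.75 ± 0.26 (adjusted p = 1.51e-10) and Cyp2j6 by 2.41 ± 0.21 (adjusted p = 2.22e-06), whereas Cyp2j9 was lower by 1.98 on average. Cyp2j11 and Cyp2j13 did not pass the test. In family 4, the Ppara target Cyp4a14 (8.19 ± 0.29), the fatty acid hydroxylase Cyp4v3 (6.77 ± 0.28) and all 4 Cyp4f members were called higher in liver, with Cyp4f differences from 2.04 (Cyp4f39) to 4.65 (Cyp4f15). Cyp4a31 (1.02 ± 0.46, adjusted p = 0.128) and Cyp4x1 (-1.04 ± 0.49, adjusted p = 0.147) were not called.

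Genes for sterol, retinoid, vitamin D and steroid hormone metabolism were mixed. Cyp26a1 and Cyp26b1, which clear retinoic acid, were higher in liver by 4.79 ± 0.35 (adjusted p = 5.23e-07) and 2.75 ± 0.37 (adjusted p = 1.01e-04). Cyp2r1, a vitamin D 25-hydroxylase, was higher by 5.17 ± 0.42 (adjusted p = 1.51e-06). The kidney enzymes of vitamin D activation and breakdown, Cyp27b1 (-0.84 ± 0.48) and Cyp24a1 (-0.64 ± 0.49), were not called. Cyp17a1, the 17-hydroxylase of steroid synthesis, was higher in liver (2.90 ± 0.56, adjusted p = 0.00161), and the other steroidogenic genes Cyp11a1, Cyp11b2 and Cyp21a1 were not called (adjusted p = 0.219, 0.407 and 0.787). Cyp51, the lanosterol demethylase of cholesterol synthesis, was measured well in both tissues, at 14.25 to 14.61 in liver and 12.60 to 13.16 in hypothalamus (difference 1.61 ± 0.21, adjusted p = 9.18e-05).

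Only Cyp46a1 and Cyp2j9 were called higher in hypothalamus. Cyp46a1, the cholesterol 24-hydroxylase of neurons, was 16.73 (B6 chow), 16.27 (congenic chow), 16.12 (B6 2-choice) and 16.20 (congenic 2-choice) in hypothalamus, and 11.29, 11.53, 12.58 and 12.62 in liver. The tissues did not overlap, and the difference was -4.32 ± 0.31 (adjusted p = 4.25e-07). Cyp2j9, a brain arachidonic acid hydroxylase, read between 14.90 and 15.18 on the hypothalamus arrays and between 12.58 and 13.52 on the liver arrays (-1.98 ± 0.23, adjusted p = 3.53e-05). Its call was lost on the deposited scale (-1.99, adjusted p = 0.0700), 1 of 11 alternatives, over which its adjusted p ran from 6.43e-06 to that value. Besides these, Cyp2j6 (13.87 to 14.12), Cyp51 and Cyp4f15 (12.12 to 13.51) stayed far above the filter level on every hypothalamus array.

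**Figure D2:**
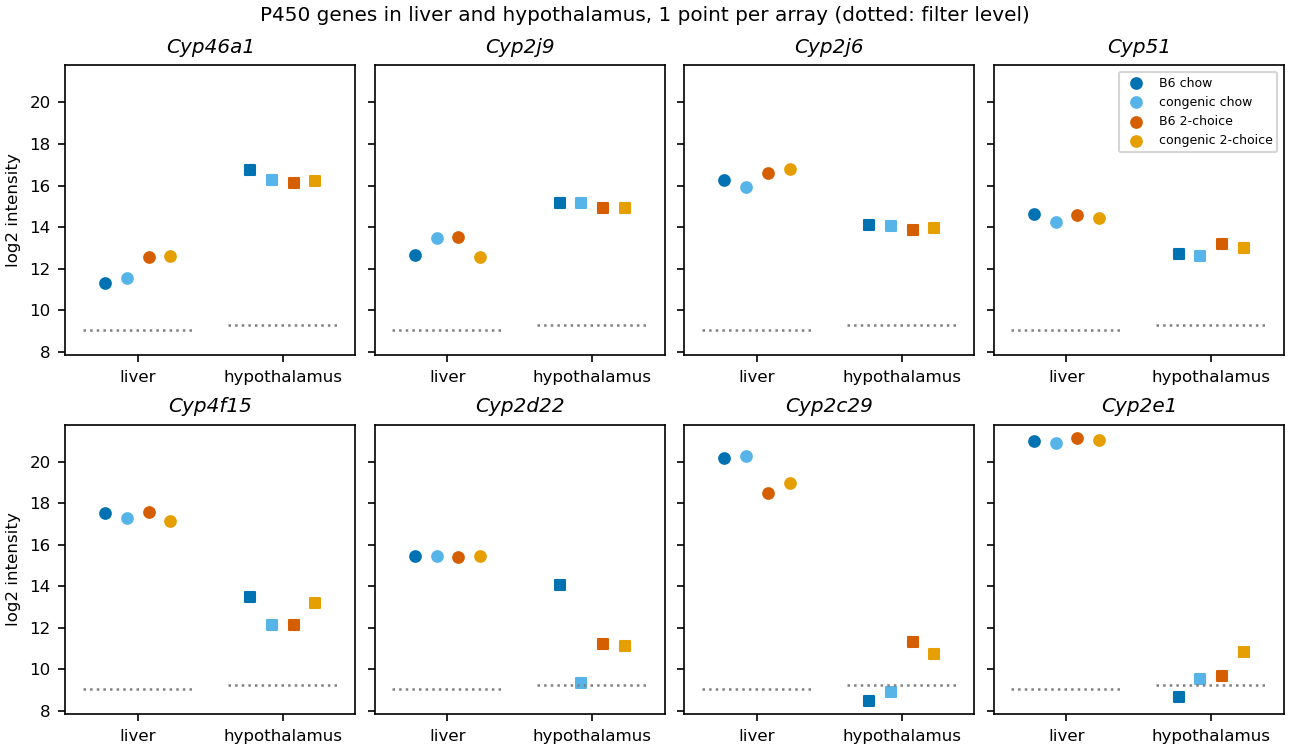
Log2 intensity of 8 P450 genes on each array, with liver on the left (circles) and hypothalamus on the right (squares) of each panel, coloured by strain and diet; dotted lines mark the filter level of each tissue (9.04 and 9.26). Cyp46a1 and Cyp2j9 are higher in hypothalamus, Cyp2j6, Cyp51 and Cyp4f15 are clearly measured in both, and Cyp2d22, Cyp2c29 and Cyp2e1 vary between hypothalamus arrays while Cyp2d22 and Cyp2e1 hardly vary in liver.

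The partners and regulators of these enzymes were mostly higher in liver too. Of 6 measured redox partners, 5 were called higher in liver and 1 lower, with Cyb5a, cytochrome b5, at 4.80 ± 0.15 and Cyb5r1 at -1.12. Of 23 regulators, 13 were called higher in liver, among them Ppara (7.62), Nr1i3 (6.83) and Nr1i2 (4.24), and 1 lower, Cux2 (-2.99). Of 31 other enzymes of foreign-chemical metabolism, 28 were called higher in liver and 0 lower, with a median difference of 7.13.

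The diet comparison asks which genes differed after 1 day of 2-choice feeding. In liver, 6 of 8 Cyp2c members, 3 of 5 Cyp3a members, Cyp2a4 and Cyp26a1 had lower levels after 2-choice feeding in both strains, and Cyp46a1 and Cyp2j6 had higher levels. Cyp2e1, Cyp1a2 and the tested Cyp2d genes differed by 0.25 or less. No member was called in the 8-array fit (0 of 45, and 0% of 19807 probes in either direction, the smallest adjusted p being 0.125). Without adjustment, 8 members lower and 4 higher, and 1731 probes, had a p under 0.05 there. The fit on the 4 liver arrays alone, which takes its error from liver but has 1 residual degree of freedom, called 9 members lower (20% of those tested, against 1.51% of probes) and 2 higher (4.44%, against 1.72%). By size, with no test, 13 members were lower in both strains with a mean of at least 1.5-fold (28.9%, against 12.1% of probes) and 5 were higher (11.1%, against 12.5%). Of the 5, Cyp1a1, Cyp2ab1 and Cyp4a31 passed the filter level through the 2-choice arrays. The median diet difference was -0.04 over the members and -0.01 over all probes. Below, "called" refers to the 4-array fit, and no member named was called in the 8-array fit.

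Cyp2c genes encode epoxygenases and hydroxylases of fatty acids and drugs, and 6 of the 8 were lower after 2-choice feeding in both strains, 4 of them called. Cyp2c55 was 13.73 (B6) and 14.53 (congenic) on chow and 10.83 and 10.76 after 2-choice feeding. Chow and 2-choice values were far apart, 10.1-fold on average (-3.34 ± 0.27, SE, 2 pairs, adjusted p = 2.25e-05 in the 4-array fit, -3.34 ± 0.55, adjusted p = 0.175 in the 8-array fit). Cyp2c29, an abundant liver Cyp2c form, was 20.17 and 20.25 on chow and 18.48 and 18.95 after 2-choice feeding (-1.49 ± 0.19, adjusted p = 2.43e-04). Both chow arrays again lay above both 2-choice arrays. Cyp2c54 was 19.00 and 18.71 on chow against 17.58 and 17.70 (-1.21 ± 0.16, adjusted p = 3.74e-04), and Cyp2c37 was 16.34 and 15.98 against 15.36 and 15.35 (-0.80 ± 0.14, adjusted p = 0.00447). Cyp2c39 was lower in both strains but unevenly, by -0.62 in B6 and -2.10 in congenic (adjusted p = 0.337). Cyp2c70, which hydroxylates bile acids in mice, was lower by -0.68 in B6 and -0.01 in congenic. Cyp2c23 (0.66 and -0.04) and Cyp2c38 (0.06 and -0.31) had opposite signs in the strains.

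Cyp3a genes encode the main drug and steroid 6-beta-hydroxylases, and 3 of the 5 were lower and called. Cyp3a41a was 18.82 (B6) and 18.78 (congenic) on chow and 17.25 and 17.10 after 2-choice feeding (-1.63 ± 0.15, adjusted p = 3.22e-05). The strains of each diet agreed closely, and the diets did not overlap. Cyp3a16 was 20.97 and 20.77 against 19.81 and 19.54 (-1.19 ± 0.21, adjusted p = 0.00453), and Cyp3a44 was 20.93 and 20.71 against 19.83 and 19.45 (-1.18 ± 0.21, adjusted p = 0.00466). These last 2 probes differed from each other by at most 0.0928 on any liver array, though by up to 1.59 in hypothalamus. Cyp3a16, Cyp3a41a and Cyp3a44 are close copies that are known mainly from newborn or female mouse liver, all mice here were male, and which copies each probe reads was not tested. Cyp3a13 (0.39 in B6 and -0.14 in congenic) and Cyp3a25 (0.30 and -0.15) were not lower. A second, dimmer Cyp3a25 probe disagreed with the one used: it read 15.02 and 15.08 on chow and 14.58 and 14.18 after 2-choice feeding.

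The promoters of the 3 Cyp3a members that were lower, and of 2 Cyp2c members that were lower, are shown so that their upstream sequences can be compared. RefSeq (GRCm38.p6) gave a start for 45 of the 58 members. Each line holds the 250 bases before the start in that table on the gene's strand, 5′ to 3′, and this start need not be the outermost one of the gene. Capitals mark the motifs CAAAGTCCA (an HNF4 element), AGGTCA and AGTTCA (nuclear receptor half-sites), each searched on both strands, so that TGAACT is AGTTCA on the opposite strand.
Cyp3a16 (chr5:145469724-145469973, minus strand): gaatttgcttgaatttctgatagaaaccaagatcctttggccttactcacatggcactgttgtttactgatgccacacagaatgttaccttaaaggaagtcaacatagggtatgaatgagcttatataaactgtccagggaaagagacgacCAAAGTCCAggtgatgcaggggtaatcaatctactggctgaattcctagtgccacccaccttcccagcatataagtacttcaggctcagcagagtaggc
Cyp3a44 (chr5:145805875-145806124, minus strand): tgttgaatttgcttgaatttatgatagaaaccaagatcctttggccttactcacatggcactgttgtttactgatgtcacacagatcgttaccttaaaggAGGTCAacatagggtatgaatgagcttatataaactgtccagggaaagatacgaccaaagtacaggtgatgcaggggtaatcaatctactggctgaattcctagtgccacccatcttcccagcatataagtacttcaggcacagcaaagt
Cyp3a41a (chr5:145720137-145720386, minus strand): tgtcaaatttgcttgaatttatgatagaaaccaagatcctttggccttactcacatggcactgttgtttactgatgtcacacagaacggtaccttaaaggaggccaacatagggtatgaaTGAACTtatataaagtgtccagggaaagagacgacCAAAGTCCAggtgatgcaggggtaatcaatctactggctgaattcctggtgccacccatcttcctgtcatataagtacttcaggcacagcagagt
Cyp2c29 (chr19:39286835-39287084, plus strand): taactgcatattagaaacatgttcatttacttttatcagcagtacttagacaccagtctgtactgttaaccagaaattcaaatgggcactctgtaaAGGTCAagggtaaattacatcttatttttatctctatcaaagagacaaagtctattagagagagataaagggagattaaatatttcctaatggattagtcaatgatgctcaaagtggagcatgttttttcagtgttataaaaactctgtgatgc
Cyp2c55 (chr19:39006769-39007018, plus strand): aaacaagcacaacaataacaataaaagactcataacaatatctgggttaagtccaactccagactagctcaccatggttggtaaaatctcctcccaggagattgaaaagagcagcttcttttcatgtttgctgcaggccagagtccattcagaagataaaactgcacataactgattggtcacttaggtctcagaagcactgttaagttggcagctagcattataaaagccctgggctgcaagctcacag

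Over the aligned 250 bases, Cyp3a16 and Cyp3a44 were 92.91% identical, Cyp3a16 and Cyp3a41a 91.34%, and Cyp3a44 and Cyp3a41a 94.40%. Cyp2c29 and Cyp2c55, both lower after 2-choice feeding, were 53.52% identical, whereas Cyp2c29 and Cyp2c38, which was not lower in both strains, were 68.75% identical. Cyp2c37, which was lower and called, was 57.6% identical to Cyp2c29. Cyp3a13, which was not lower in both strains, was 57.8% identical to Cyp3a16, 57.04% to Cyp3a44 and 55.44% to Cyp3a41a. Whether likeness of these windows goes with the diet difference was not tested. CAAAGTCCA occurred in the windows of Cyp3a16, Cyp3a41a and Cyp2c70, which was 3 of 45 members, and in 0.451% of 27025 genes. AGGTCA occurred in 11 members, Cyp2c29 and Cyp3a44 among them, and in 15.763% of all genes. AGTTCA occurred in 6 members and 13.373% of genes, and GCGTG (the core of Ahr sites, not in capitals) in 10 members and 30.853%. TTATGTAA (a D-box, in 0.977% of genes) occurred in no member's window. A match of letters is a description of the window and shows no binding.

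Outside these subfamilies, 2 further members were lower and called. Cyp2a4 was 20.25 (B6) and 20.35 (congenic) on chow and 19.34 and 19.46 after 2-choice feeding (-0.90 ± 0.20, adjusted p = 0.0166). Cyp26a1, the retinoic acid hydroxylase, was 13.70 and 14.06 against 13.07 and 12.96 (-0.86 ± 0.19, adjusted p = 0.0190). Diets did not overlap in either gene. Cyp2b9 (-1.18 in B6 and -2.55 in congenic), Cyp4b1 (-1.43 and -1.38) and Cyp4f18 (-0.61 and -0.63) were lower by at least 1.5-fold but were not called. A second Cyp4b1 probe had the same direction, at 12.54 and 12.91 on chow and 11.58 and 11.61 after 2-choice feeding.

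The members higher after 2-choice feeding came from different subfamilies. Cyp46a1 in liver was 11.29 (B6) and 11.53 (congenic) on chow and 12.58 and 12.62 after 2-choice feeding (1.19 ± 0.29, adjusted p = 0.0333). Cyp2j6 was 16.26 and 15.94 against 16.63 and 16.78 (0.61 ± 0.15, adjusted p = 0.0322). Both were called, with no overlap between diets. Cyp1a1, the inducible target of the aryl hydrocarbon receptor, was 9.04 and 7.88 against 10.52 and 9.89 (1.75 ± 0.68, adjusted p = 0.203), and Cyp2ab1 was 8.15 and 8.87 against 9.84 and 11.73 (2.28 ± 0.67, adjusted p = 0.0821). Both of these had chow values at or under the liver filter level and were not called, as was Cyp4a31 (0.86 and 1.01). Of the other Ahr targets measured, Tiparp (-1.26 and 1.49) and Aldh3a1 (-0.56 and 0.32) had opposite signs in the strains, and Ahrr was not tested.

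Many P450 genes with high liver levels had small diet differences (SE from the 4-array fit). They were 0.15 ± 0.24 for Cyp2e1, -0.13 ± 0.19 for Cyp1a2, 0.05 ± 0.23 for Cyp2d9, 0.25 ± 0.16 for Cyp2d10, -0.02 ± 0.14 for Cyp2d22, -0.04 ± 0.14 for Cyp2a12, 0.03 ± 0.27 for Cyp2b10, -0.06 ± 0.16 for Cyp2j5 and 0.07 ± 0.15 for Cyp51. The 5 tested Cyp2d members ranged from -0.22 to 0.25. The Ppara target Cyp4a14 averaged 0.05, made of 0.77 in B6 and -0.68 in congenic. Cyp2f2, a naphthalene oxidase, averaged -0.25, made of -1.20 in B6 and 0.70 in congenic, and Cyp2j9 0.88 and -0.87.

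**Figure D3:**
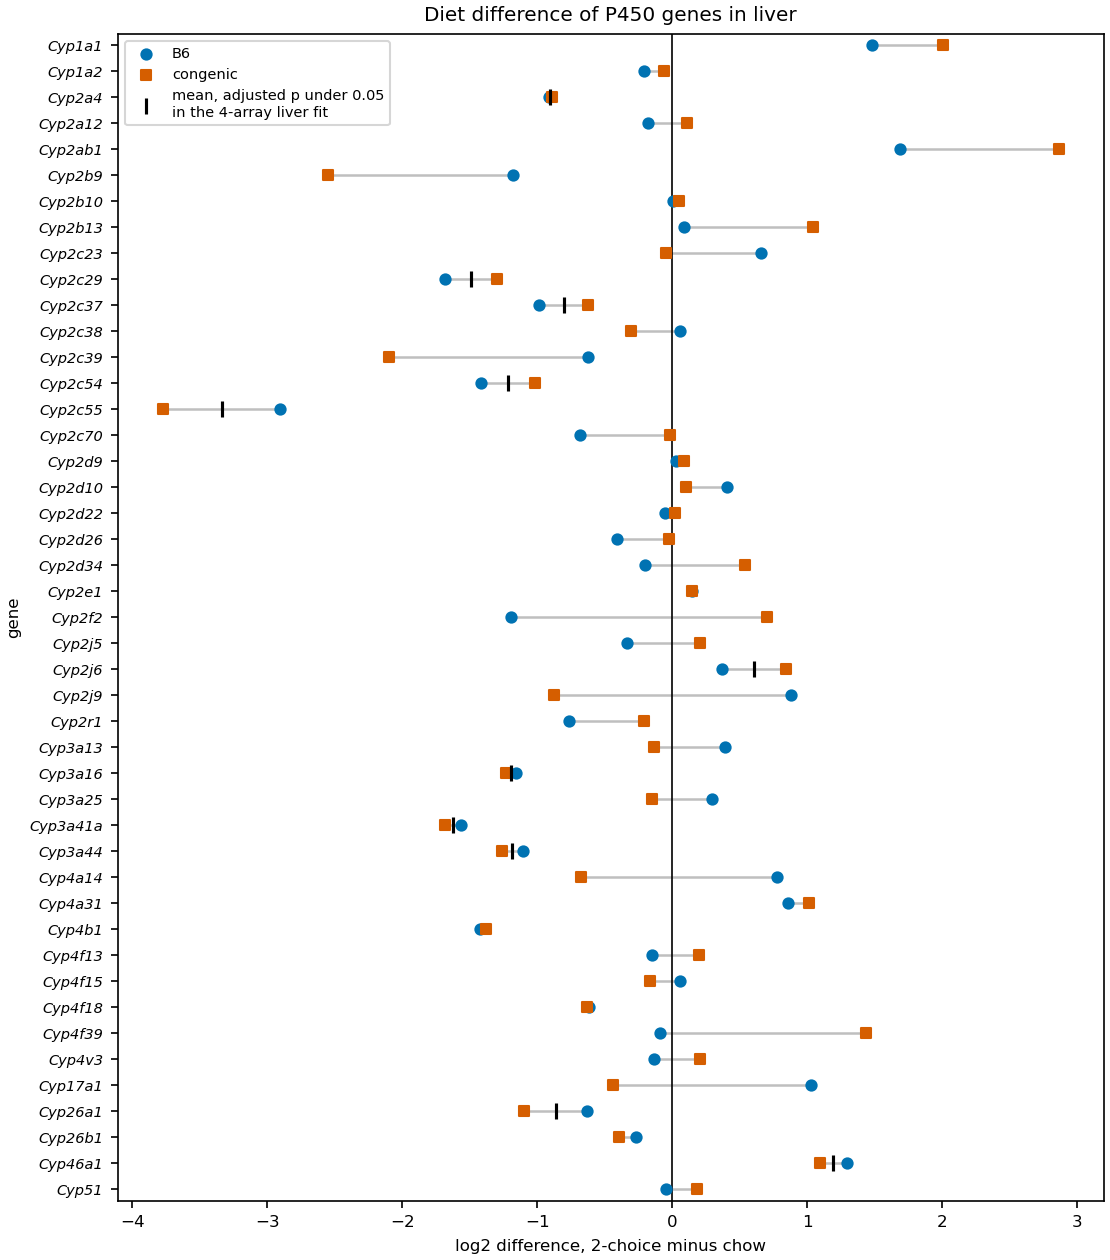
Diet difference in liver, 2-choice minus chow in log2 units, for the 45 tested P450 genes; circles are B6, squares congenic, grey lines join them, and black ticks are means called in the fit of the 4 liver arrays. Cyp2c55 lies farthest to the left (-2.90 and -3.78), and 9 ticks stand left of 0 against 2 on the right. In the fit of all 8 arrays no gene was called.

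All 11 calls came from the 4-array fit, 1 of 13 alternatives for each gene. Over those alternatives the adjusted p ran from 2.25e-05 to 1 for Cyp2c55, from 3.22e-05 to 0.954 for Cyp3a41a, from 2.43e-04 to 0.690 for Cyp2c29 and from 0.0333 to 0.690 for Cyp46a1. Directions of these 4 held in each: Cyp2c55 ranged from -3.78 to -2.90, Cyp2c29 from -1.68 to -1.30 and Cyp46a1 from 1.09 to 1.30. The 8-array fit also draws its error from hypothalamus, where the median size of the strain-by-diet contrast was 0.34 against 0.24 in liver.

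Among related genes, Nr1i3, a receptor known to act on Cyp2b and Cyp2c genes, was 15.72 and 15.83 on chow and 15.27 and 15.03 after 2-choice feeding (-0.63, adjusted p = 0.0225 in the 4-array fit). It was the only 1 of 19 tested regulators called. The tested Cyp2b genes went both ways (Cyp2b10 0.03, Cyp2b13 0.57 and Cyp2b9 -1.87). Whether Nr1i3 had a part in the P450 differences was not tested. Of the 30 tested other enzymes of foreign-chemical metabolism, 2 were called lower, Ephx1, microsomal epoxide hydrolase (-0.95, adjusted p = 0.00106), and Ces2a, a carboxylesterase (-0.80, adjusted p = 0.00976), and 0 higher. Of 6 redox partners, Fdx1, the ferredoxin of mitochondrial P450s, was called higher (0.60, adjusted p = 0.0493). Of 8 Ppara targets outside the superfamily 0 were called in either fit, with a median of 0.13 and 4 higher in both strains.

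Markers of other liver cells differed with diet too. Of 6 measured Kupffer cell and macrophage markers, 4 were lower in both strains and called in the 4-array fit (C1qa, C1qb, Cd5l and Clec4f, median of the list -1.38), and their summed level was 17.58 and 17.68 on chow against 16.39 and 16.11 after 2-choice feeding. Of 5 liver endothelial markers, 4 were lower in both strains and 2 called, with sums of 15.89 and 16.09 against 15.08 and 15.32. Of 7 hepatocyte markers, 2 were lower in both strains and 0 called, with sums of 23.43 and 23.67 against 23.10 and 23.42. Of 6 tested markers of pericentral hepatocytes, where many P450 genes are known to be highest, 4 were lower and 2 called (Oat -1.17 and Slc1a2 -0.65). Glul, the defining one, was at 0.12, and the median of the list was -0.44. Of 6 tested periportal hepatocyte markers, 3 were lower in both strains, 1 of them called, and 1 was higher, with a median of -0.07. Their part in the P450 result was not tested. In pooled tissue, fewer cells of a type and less RNA per cell cannot be told apart.

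The strain comparison asks what the chromosome 17 donor DNA goes with. In liver the members lower in congenic mice under both diets by at least 1.5-fold were Cyp1a1, Cyp2b10, Cyp2b13, Cyp2c39, Cyp4a14, Cyp4a31, Cyp4f18 and Cyp4f39. Those higher were Cyp2b9, Cyp17a1 and Cyp2ab1. The 8-array fit called 0 of 45 members (0% of probes, the smallest adjusted p being 0.217). Without adjustment, 3 members lower, 2 higher and 1318 probes had a p under 0.05. The 4-array fit called 3 lower (6.67%, against 1.03% of probes) and 0 higher (against 0.237%; 4 members at an unadjusted p under 0.05). By size and sign, 8 members were lower by at least 1.5-fold under both diets (17.8%, against 13.3% of probes) and 3 higher (6.67%, against 9.16%). Among these, Cyp1a1, Cyp4a31 and Cyp2ab1 passed the filter level through 1 strain. These comparisons use the same 4 arrays as those of diet.

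Cyp4f18, a leukotriene B4 hydroxylase of myeloid cells, was 13.03 (chow) and 12.41 (2-choice) in B6 and 11.75 and 11.11 in congenic liver. The strains did not overlap, with a difference of -1.29 ± 0.28 (SE, 2 pairs, adjusted p = 0.0336 in the 4-array fit, 0.744 in the 8-array fit). Cyp2b10 was 12.79 and 12.80 in B6 and 11.52 and 11.57 in congenic liver (-1.25 ± 0.27, adjusted p = 0.0320 and 0.802). Its values were almost the same on both diets within each strain. Cyp4a14 was 16.71 and 17.48 in B6 and 16.22 and 15.55 in congenic liver (-1.21 ± 0.23, adjusted p = 0.0110 and 0.703). The strain gap of Cyp4a14 was -0.48 on chow and -1.94 after 2-choice feeding. Without either 2-choice array the estimate was -0.48, and it was -1.94 without either chow array. Over the 13 alternatives the adjusted p of each of these 3 genes reached 1, and only the 4-array fit called them.

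Other members were lower by size but not called. Cyp4a31 was 9.86 and 10.72 in B6 and 8.09 and 9.11 in congenic liver (-1.69 ± 0.67, adjusted p = 0.313). Cyp1a1 (-1.16 on chow and -0.63 after 2-choice feeding), Cyp2c39 (-0.17 and -1.65) and Cyp2b13 (-1.10 and -0.15) also had the lower level in congenic liver. Of the 5 Cyp3a members, 4 were lower under both diets by small amounts, with a subfamily median of -0.23 and none called. Cyp2b9 was 9.90 and 8.72 in B6 and 12.62 and 10.07 in congenic liver (2.03 ± 0.59, adjusted p = 0.124), and Cyp17a1 was 10.06 and 11.09 against 12.32 and 11.88 (1.53 ± 0.43, adjusted p = 0.109). In both genes every congenic array lay above both B6 arrays. Cyp2ab1 was higher by 0.72 and 1.90. Cyp2b9 and Cyp2b10 thus had opposite signs within 1 subfamily, 2.03 and -1.25. Cyp2f2 averaged 0.82, which rested on the 2-choice pair (1.77, against -0.13 on chow).

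By the reference table, 5 members lie on chromosome 17, the donor chromosome: Cyp1b1, Cyp21a1, Cyp4f13, Cyp4f15 and Cyp4f39. Cyp4f13 was 14.54 (chow) and 14.39 (2-choice) in B6 and 14.87 and 15.07 in congenic liver (0.51 ± 0.15, adjusted p = 0.139 in the 4-array fit). Cyp4f15 was 17.54 and 17.59 against 17.31 and 17.15 (-0.34 ± 0.14, adjusted p = 0.360). Neither overlapped between strains, and neither was called. Cyp4f39 differed by -1.60 on chow and -0.08 after 2-choice feeding (-0.84 ± 0.46, adjusted p = 0.502). Cyp1b1 and Cyp21a1 were under the liver filter level and were not tested there.

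**Figure D4:**
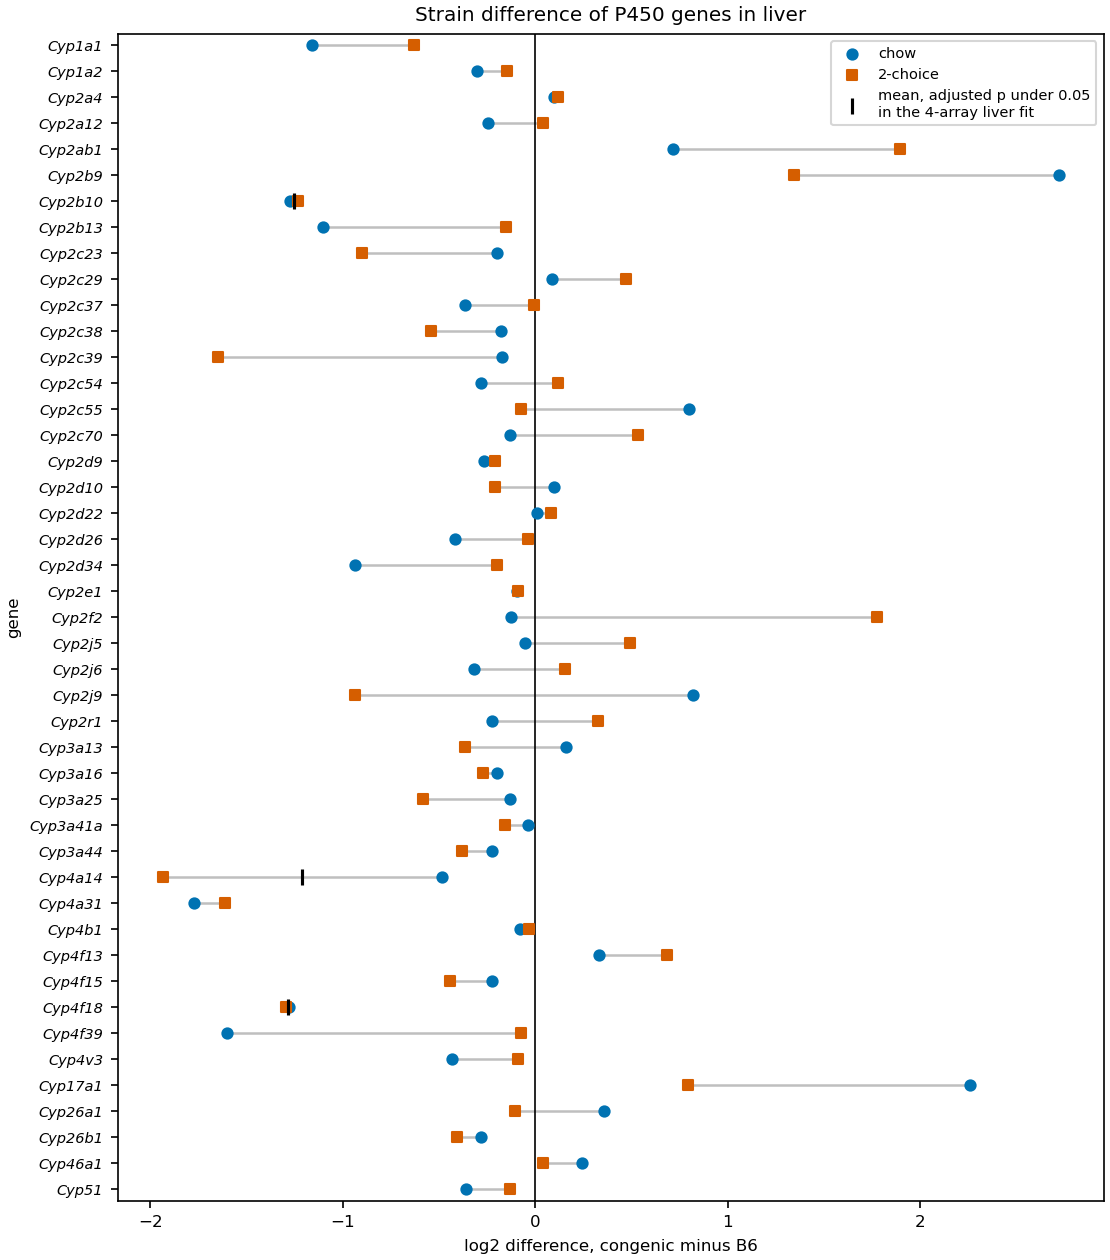
Strain difference in liver, congenic minus B6 in log2 units, for the 45 tested P450 genes; circles are chow, squares 2-choice, grey lines join them, and black ticks are means called in the fit of the 4 liver arrays (Cyp2b10, Cyp4a14 and Cyp4f18). Cyp2b9 and Cyp17a1 lie right of 0 under both diets, and Cyp4a31 and Cyp4f18 left. In the fit of all 8 arrays no gene was called.

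Among related genes, 0 of 19 tested regulators, 0 of 6 redox partners and 0 of 8 other Ppara targets were called in either fit, and 4 of the Ppara targets were lower under both diets (median of the list -0.22). Sult1c2, a sulfotransferase, was the 1 of 30 other enzymes of foreign-chemical metabolism called in the 4-array fit, at 12.47 and 12.49 in B6 and 14.68 and 13.93 in congenic liver (1.83, adjusted p = 2.24e-04). Kupffer cell markers (17.58 and 16.39 summed in B6 against 17.68 and 16.11 in congenic) and hepatocyte markers (23.43 and 23.10 against 23.67 and 23.42) gave 0 calls between strains.

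In hypothalamus 24 members passed the filter, and the strain comparison called 0 of them in the 8-array fit (0% of probes, the smallest adjusted p being 0.203) and 0 in the 4-array fit (against 0.0303% of probes higher and 0.0757% lower). Without adjustment, the 8-array fit gave 3 members higher, 2 lower and 983 probes a p under 0.05, and the 4-array fit 0 higher, 1 lower and 930 probes. By size and sign, 5 members were higher in congenic mice (20.8%, against 10.2% of probes) and 2 lower (8.33%, against 10.1%). Among these, Cyp2e1, Cyp11a1, Cyp24a1 and Cyp3a41a passed the filter level through 1 strain. Among members with high hypothalamus levels, the difference was -0.19 ± 0.21 for Cyp46a1, 0.01 ± 0.35 for Cyp2j9, -0.01 ± 0.18 for Cyp2j6 and -0.13 ± 0.20 for Cyp51. Cyp2d22, a Cyp2d form expressed in brain, was 14.07 (chow) and 11.24 (2-choice) in B6 and 9.34 and 11.11 in congenic hypothalamus. Its mean of -2.43 ± 0.81 (adjusted p = 0.823) came from the chow pair (-4.73, against -0.13 after 2-choice feeding), while in liver the same probe stayed between 15.40 and 15.48. Cyp2e1 was higher in congenic hypothalamus by 0.87 and 1.15 and Cyp2d9 by 1.89 and 0.46, and Cyp3a41a was lower by 2.38 and 0.85, all with an adjusted p of 0.823. On chromosome 17, Cyp4f13 differed by 2.74 on chow and 0.68 after 2-choice feeding, Cyp4f15 by -1.39 and 1.09, and Cyp1b1 by -0.25 and 0.03. Without the B6 or the congenic 2-choice array, only the chow pair gives the difference, and the error then comes from the liver arrays alone. The median size of the strain difference over all tested probes was 0.61 on chow and 0.21 after 2-choice feeding.

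For diet in hypothalamus, 3 of 24 members were called in the 8-array fit: Cyp2c29 and Cyp2e1 were higher after 2-choice feeding (0.353% of probes were called higher) and Cyp3a41a was lower (0.136% were called lower). Each of the 3 passed the filter level of 9.26 through 1 diet: the chow mean was 8.70 for Cyp2c29 and 9.12 for Cyp2e1, and the 2-choice mean was 8.68 for Cyp3a41a. With these 3, 11 of the 24 tested members passed through 1 diet, so no share is read against the background here. With no filter on level the 3 were still called (adjusted p = 0.0109, 0.0425 and 0.0213). Cyp2c29 was 8.48 (B6) and 8.93 (congenic) on chow and 11.30 and 10.74 after 2-choice feeding (2.32 ± 0.25, adjusted p = 0.0101). Cyp2e1 was 8.68 and 9.55 against 9.68 and 10.83 (1.14 ± 0.16, adjusted p = 0.0317). For Cyp2c29 the diets were far apart, and for Cyp2e1 the higher chow array lay just below the lower 2-choice array. Cyp3a41a was 12.36 and 9.98 on chow and 9.11 and 8.26 after 2-choice feeding (-2.49 ± 0.32, adjusted p = 0.0201), the opposite direction to the other called members and with no overlap. None of the 3 was called in the 4-array fit (adjusted p = 0.132, 0.505 and 0.107), which called 2.31% of probes higher and 1.49% lower, nor without a trend in the variance model. At an unadjusted p under 0.05 the 4-array fit gave 1 member higher and 1 lower. None of the 3 passed the filter at the 60th percentile (10.14), so none was tested there. Fits without 1 of the hypothalamus arrays take their error from liver alone, so whether they called the 3 is not given. The other alternatives called each of the 3. Over the 12 alternatives the difference ran from 1.81 to 3.58 for Cyp2c29, from 1.00 to 2.32 for Cyp2e1 and from -3.25 to -1.28 for Cyp3a41a. The adjusted p ran from 8.54e-06 to 0.177 for Cyp2c29 and from 2.29e-05 to 0.505 for Cyp2e1, and reached 0.181 for Cyp3a41a.

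Some liver and pituitary markers differed between the same arrays. The summed level of the 7 hepatocyte markers was 12.96 and 12.46 on chow and 13.08 and 13.57 after 2-choice feeding. Of the 5 tested, 2 were higher in both strains, and Ttr, transthyretin, which is also made in choroid plexus, was called (10.02 and 8.81 against 12.08 and 11.87, adjusted p = 0.00806). Alb was 8.75 and 8.81 against 9.35 and 11.42. The 4-array fit called 0 hepatocyte markers. Among related liver enzymes, Ephx2, soluble epoxide hydrolase, was called higher (8.86 and 8.90 against 11.04 and 10.88, adjusted p = 0.00806), and so was Acaa1b (1.67, adjusted p = 0.0187). Their lists as a whole went both ways. Of the 17 tested other enzymes of foreign-chemical metabolism, 7 were higher in both strains and 8 lower (median -0.12). Ugt2b1, for example, was 13.43 and 10.45 on chow and 9.58 and 9.32 after 2-choice feeding. Of 5 tested Ppara targets, 2 were higher and 2 lower. The 4 anterior pituitary markers summed to 11.63 and 10.95 on chow and 15.24 and 13.84 after 2-choice feeding, with Gh at 8.28 and 8.74 against 14.31 and 12.24. Of the 4, 3 were higher in both strains. The other, Tshb, was 10.87 and 9.06 on chow against 10.06 and 10.29. The part of these markers and enzymes in the P450 result was not tested.

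The remaining members in hypothalamus were not called for diet. Cyp46a1 (-0.61 in B6 and -0.07 in congenic), Cyp2j9 (-0.22 and -0.28) and Cyp2j6 (-0.25 and -0.11) were slightly lower under this scaling, but all 3 were higher on the deposited scale, on which the median probe moved by 2.05. Cyp51 was higher by 0.47 and 0.39 (adjusted p = 0.272), Cyp4v3 by 1.76 and 0.64 (adjusted p = 0.0794) and Cyp2f2 by 0.91 and 0.87 (adjusted p = 0.210). Cyp2c70 (-2.78 and -0.18), Cyp4b1 (-2.41 and -0.41) and Cyp11a1 (-0.81 and -1.67) were lower in both strains (adjusted p = 0.155, 0.253 and 0.299). By size and sign, 6 members were higher (25%, against 21.8% of probes) and 7 lower (29.2%, against 16.6%), with the same limit on these shares.

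Whether an effect was unequal in the 2 tissues was tested for the 17 members that passed both filters. For strain, 0 were called (0% of probes, the smallest adjusted p being 0.796), and 1 member higher, 2 lower and 836 probes had an unadjusted p under 0.05. For diet, Cyp2c29 was called, with 0.0582% of probes called lower and 0.00647% higher. It was among the 17 only through its 2-choice values in hypothalamus, so its share is not read against these, and with no filter on level its adjusted p was 0.0361. Its diet difference was -1.49 in liver and 2.32 in hypothalamus, a gap of -3.81 ± 0.35 (adjusted p = 0.0259). Cyp46a1 had the opposite arrangement, 1.19 in liver and -0.34 in hypothalamus, and was not called (adjusted p = 0.134). For Cyp2c29 the direction held, but the call was lost with all 8 arrays on 1 distribution and without a variance trend, and over 7 alternatives its adjusted p ran from 1.07e-04 to 0.348 and the gap from -5.21 to -3.52.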

How the data were processed

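Probe intensities of 8 single-channel Applied Biosystems arrays were used as deposited, on a linear intensity scale. Per the labels' protocols, 1 microgram of pooled total RNA was transcribed into digoxigenin-labelled cRNA. How the authors corrected background and normalized, and any detection flag, is not given in the sources used here, so the precision of a level could not be set from the files beyond the number of arrays. Genes were named from GEO's platform annotation, and chromosomes and promoters from RefSeq (GRCm38.p6). Probe and protein sequences were not used here.

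Each tissue's 4 arrays were quantile normalized after a log2 transform. Linear models were fitted in R 4.3.3 with limma 3.58.1, using lmFit and then eBayes with its variance trend. The p-values were adjusted by Benjamini-Hochberg over every probe in the test, and 0.05 was the threshold. Tissue was tested on all 33012 probes blocking on the 4 matched pairs, which left 3 residual degrees of freedom. Strain and diet within a tissue, and their differences between tissues, were estimated together from the 8 arrays, with a strain and a diet term in either tissue, which left 2 residual degrees of freedom. Probes at or above the 40th percentile of mean level in a tissue were tested, 19807 in each and 15466 in both. Using only a tissue's own 4 arrays left 1 residual degree of freedom. Alternatives were 3 other scalings, other filters on level, 2 other variance models, the mean of a gene's probes, and leaving out each array or pair. Named genes were, per comparison, up to 10 members in each direction with the same sign in every pair and at least 1.5-fold, and a list of members named whatever their values. Other genes came from lists of partners, regulators, related enzymes, receptor targets and cell type markers. The members and lists were chosen with earlier results of these data known. Promoter identity was computed on global alignments with Biopython 1.88.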

Additional observations from a re-analysis of the deposited data

Results flagged for a closer look

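The 4 liver or hypothalamus arrays of each member above the filter level, 69 groups in all, were searched for 1 array far from the other 3. Chance flags about 5% of such groups. In liver, Cyp2b13 was 9.28 on the congenic chow array, with the other arrays between 10.32 and 10.47. Cyp4f39 was 10.00 on the same array, with the others between 11.43 and 11.60. Cyp2d26 was 18.52 on the B6 chow array, with the others between 18.08 and 18.12.

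The diet difference of Cyp2c29 was called unequal in the 2 tissues, with a gap of -3.81 between liver and hypothalamus (adjusted p = 0.0259 in the interaction test with limma). Its chow mean in hypothalamus (8.70) was under the filter level (9.26), so it was tested only through its 2-choice values. The call was lost with every array on a shared distribution and without a variance trend. A diet effect cannot be told apart from the separate scaling of chow and 2-choice arrays.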

How the results depend on the processing

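The tissue test was paired by strain and diet, and the strain and diet tests held the other factor as a term. A block on replicate number could not be added, since each group had 1 array. The 42 tissue calls stayed within 1.5 times under all 11 alternatives. In liver, the 4-array fit gave 3 strain calls and 11 diet calls against 0 and 0 with 8 arrays, and the other alternatives gave 0. Strain calls in hypothalamus were 0 in the main fit. Leaving out 1 hypothalamus array leaves liver as the only source of error for hypothalamus effects. Strain calls of those fits are therefore not given. Their diet counts, in the next sentence, only list how the setting moved the number and are not evidence of a diet effect. Diet calls in hypothalamus were 16 of 24 on the deposited scale (15 higher), 10 with median centring (7 higher), 0 with the filter at the 60th percentile, 0 without a trend, 0 with 4 arrays, and 7 to 9 when an array was left out, against 3 (2 higher). The median of all probes in that comparison was 2.05 on the deposited scale and 0.79 with median centring, against 0.07. Diet-by-tissue calls were 11 on the deposited scale, 5 with median centring, and 0 with all 8 arrays on 1 distribution, with the 60th percentile filter or without a trend, against 1. The fits that leave out a pair could not be fitted for either interaction, since no residual degree of freedom remains.

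Directions turned as follows, and the cause was not tested. Diet in hypothalamus on the deposited scale: Cyp1b1 0.59, Cyp24a1 0.36, Cyp2d9 1.48, Cyp2g1 0.30, Cyp2j6 2.01, Cyp2j9 1.88, Cyp3a16 0.53, Cyp46a1 1.67 and Cyp4f15 2.12, and with median centring Cyp2j6 0.75. Diet by tissue on the deposited scale gave Cyp2c70 -0.034, Cyp2d9 -1.55, Cyp2j6 -1.49, Cyp2j9 -1.90, Cyp3a41a -0.44, Cyp46a1 -0.47 and Cyp4f15 -2.26, and with median centring Cyp2j6 -0.24. When each array was left out in turn, diet differences in hypothalamus ranged from -2.83 to 1.77 for Cyp2d22, from -0.20 to 1.86 for Cyp4f13, from -1.37 to 1.10 for Cyp4f15 and from -2.77 to 0.12 for Cyp11b2. Strain differences ranged from -0.49 to 2.40 for Cyp11b2 and from -1.90 to 0.10 for Cyp4b1 in hypothalamus, and from -0.13 to 1.77 for Cyp2f2 in liver. The liver diet difference of Cyp4f39 ranged from -0.094 to 1.43. Leaving out each pair in turn, the tissue difference of Cyp11b2 ranged from -1.57 to 0.15.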
